A study of Mus musculus with 12 samples.

Results

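The 10 genes described here encode the main heat shock proteins and the mitochondrial chaperonin of mouse cells: Hspa1a, Hspa1b, Hspa8, Hsph1, Hsp90aa1, Hsp90ab1, Hspa5, Hspa9, Hspd1 and Hspe1. They were taken by name from the 27998 gene names of the count tables, and all 10 were present. Their counts of unique molecular identifiers (UMIs, one per captured transcript) were summed over all cells of a library and over the cells of each class, and are given as CPM, the gene's count scaled to the total UMIs of that library or class. Counts come from the 3′ end of transcripts, so levels are compared between libraries and classes for 1 gene at a time and not between genes.

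The study profiled single c-Kit+ bone marrow cells, a fraction enriched in haematopoietic stem and progenitor cells, to follow how loss of the histone methyltransferase Ezh2 and an activated NRas change haematopoiesis together and alone. The names of the cells in all 12 tables number the time points 1 lower than the labels do, and the labels are followed here. Mice were on a C57BL/6 background and received pIpC (5 injections) at 8 to 12 weeks of age by the labels, while the study's text mentions a younger age. Marrow was taken 2 weeks (T1), 2 months (T2) or 4 months (T3) later. The labels name femurs and tibias as its source, and the study's methods for c-Kit+ enrichment add vertebrae and pelvic bones. WT mice lacked Mx1-Cre, E2-KO mice were Mx1-Cre+ and Ezh2 f/f, G12D mice were Mx1-Cre+ with 1 NRas G12D knock-in allele, and G12D/E2-KO mice carried both changes. pIpC was given to mice of every genotype, and the WT controls lacked Cre. The sources used here do not say whether they carried the floxed or knock-in alleles. Mx1-Cre is an interferon-responsive driver that recombines in many haematopoietic cells and also in other tissues, so the mutations were not limited to stem cells. There was 1 library for each genotype and time point, 12 in all, and no source used here says how many mice went into a library. The 3 time points of a genotype therefore served as its replicates. A p-value rests on the spread between libraries that is left after genotype and time point are fitted, and does not measure the spread between mice.

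Libraries held 12636998 to 23646292 UMIs from 2350 to 3767 cells, with a median of 3780.5 to 6975.5 UMIs per cell. Of the 5648 cells in the G12D T1 table, 2896 (51.3%) also occurred in the G12D/E2-KO T1 table, where they made up 95.1% of the cells. Cells were matched at a similarity of their counts above 0.9, the highest in any other pair of tables was 0.856, and 1494 of the matched cells were equal in every gene. In the matched cells Ezh2 was at 20.9 CPM and at 86.3 CPM in the remaining G12D T1 cells, and the matched cells were counted once, in G12D/E2-KO T1, which left 32701 cells. Ezh2 was at 103 to 133 CPM in WT, 81.7 to 103 CPM in G12D, 27.7 to 34.6 CPM in E2-KO and 20.7 to 25.3 CPM in G12D/E2-KO. Nras, whose knock-in allele differs near the 5′ end of the transcript and so is not told apart by 3′ counts, was at 52.5 to 80.3 CPM in all 12 libraries. Cells were placed in 13 classes by clustering the WT cells, naming clusters from marker genes, and giving each mutant cell the class of its nearest WT cell. The chaperone genes took no part in the clustering, and a class name means that the cells resemble that type by its markers. In 8 classes each library gave 20 cells or more: stem and multipotent progenitor cells (HSC/MPP, 3952 cells), granulocyte-monocyte progenitors and early granulocytes (GMP/early GN, 6093), late granulocytes (late GN, 8364), pro-monocytes (ProMo, 2335), megakaryocyte-erythroid progenitors (MEP, 1089), megakaryocytes (Meg, 940), erythroid progenitors and early erythroid cells (EryP/early Ery, 4532) and late erythroid cells (late Ery, 2710). Kit, the gene of the surface protein used for the enrichment, averaged 144 ± 39.6 CPM in MEP and 103 ± 20.3 CPM in HSC/MPP but 15.1 ± 2.99 CPM in late GN and 3.84 ± 2.21 CPM in late Ery (n = 12), so these late classes carried little of it. Assigning cells by marker scores alone gave the same class to 89.8% of EryP/early Ery and 96.5% of late GN cells but to 56.3% of HSC/MPP and 55.8% of MEP cells. Of the 2 WT clusters in HSC/MPP, 1 was led by Prg2 and Cpa3, genes of eosinophils and mast cells. MEP came from 1 WT cluster, whose MEP markers were raised over the other WT cells about as much as its HSC/MPP markers. The mean log2 rise of the 8 most raised markers was 1.66 for MEP and 1.51 for HSC/MPP.

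Molecular chaperones bind proteins that are unfolded or partly folded and use cycles of ATP binding and hydrolysis to help them fold, move or be degraded. In the cytosol HSP70 proteins take up newly made chains and pass some of them to HSP90, which completes the folding of kinases, steroid receptors and other signalling proteins. Separate HSP70 proteins work in the endoplasmic reticulum (ER) and in mitochondria, and mitochondria also hold the barrel-shaped chaperonin HSP60 with its lid HSP10. Heat shock factors raise the inducible genes by binding repeated GAA units, while ER stress acts through other elements. Chaperones matter in blood formation: HSP70 shields the erythroid factor GATA1 from cleavage in maturing erythroblasts, and the human HSPA9 gene lies in a region that is often deleted in myelodysplastic syndromes.

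Promoter stretches that match such elements are shown because the members searched differ in these matches. RefSeq windows (GRCm38.p6) from 250 bases before to 50 bases after each annotated start were at hand for 6 of the 10 members. A heat shock element of 3 units, spelled GAANNTTCNNGAA and searched on both strands, occurred in 198 of 32851 windows of that length (0.603%), and an ER stress element, spelled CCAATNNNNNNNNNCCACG and searched on both strands, in 39 of them (0.119%). The matches are in capitals, with 4 flanking bases on each side.
Hspe1 (heat shock element, plus strand, chr1:55088055-55088080): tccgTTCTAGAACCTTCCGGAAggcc
Hspd1 (the same bases on the minus strand): ggccTTCCGGAAGGTTCTAGAAcgga
Hsph1 (heat shock element, minus strand, chr5:149636284-149636304): cagaTTCTGGAAAGTTCtcct
Hspa5 (ER stress element, plus strand, chr2:34772021-34772047): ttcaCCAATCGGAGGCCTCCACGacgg
Hspe1 and Hspd1 lie head to head on chromosome 1 and their annotated genes overlap by 112 bases. Their capitals hold 2 overlapping matches, at -89 to -72 from the Hspe1 start and at -144 to -127 from one of the Hspd1 starts, so the element sits before the Hspe1 start and before that Hspd1 start. It lies inside the annotated Hspd1 gene, whose outermost start is further out, and the window of another Hspd1 start held no match. The Hsph1 match lies 16 to 28 bases after one of its annotated starts, and the Hspa5 match lies at -65 to -47. All of these stretches fall within an exon of some annotated transcript. The windows of Hspa1a and Hspa1b held neither spelling. Only these exact spellings were searched, so an element with other letters or outside the windows would be missed. A match is a string of letters and says nothing of binding in these cells.

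Hspa1a (ENSMUSG00000091971, chr17:34969190-34972156, minus strand, GRCm38) and Hspa1b (ENSMUSG00000090877, chr17:34956436-34959238, minus strand) encode the stress-inducible HSP70, and they were close to absent. In all 12 libraries together there were 60 UMIs of Hspa1a and 47 of Hspa1b. Hspa1a was found in 58 of 32701 cells (0.177%, 95% exact binomial interval 0.135 to 0.229%) and Hspa1b in 46 (0.141%, 0.103 to 0.188%). The intervals cover counting error only. Each library had 1 to 11 UMIs of Hspa1a and 1 to 17 of Hspa1b.
By library, Hspa1a was at 0.238, 0.085 and 0.051 CPM in WT at T1, T2 and T3, at 0.579, 0.510 and 0.079 CPM in E2-KO, at 0.101, 0.114 and 0.653 CPM in G12D, and at 0.494, 0.108 and 0.130 CPM in G12D/E2-KO. The genotypes overlapped and the values within a genotype differed several-fold on a handful of molecules. Hspa1b was at 0.178, 0.042 and 0.102 CPM in WT, at 0.211, 0.788 and 0.237 CPM in E2-KO, at 0.101, 0.057 and 0.119 CPM in G12D, and at 0.224, 0.215 and 0.194 CPM in G12D/E2-KO. In CPM the 6 libraries with Ezh2 deleted, with 3 to 17 UMIs each, were above the 6 others, with 1 to 3 UMIs each. WT T1, E2-KO T3 and G12D/E2-KO T3 had 3 UMIs each, so their order in CPM came from the library totals alone. The difference was not tested, and the share of all genes split in this way was not counted. The 2 genes lie 9951 bases apart and are near copies: 47.5% of the 98-base windows of the Hspa1a transcript also occur in Hspa1b, but none of those in the last 500 bases, which 3′ libraries mostly read. Hspa1b was too low for the count test, and Hspa1a passed no test in any comparison. The immediate early genes, which cell handling raises, were present in every library: the 14 genes of that list summed to 155 to 180 CPM in WT, 124 to 155 CPM in E2-KO, 167 to 201 CPM in G12D and 129 to 228 CPM in G12D/E2-KO.

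The other 8 members were abundant, with 5416 UMIs for Hsph1, the least counted, up to 242971 for Hsp90ab1. All 10 together took 0.298 to 0.452% of a library's UMIs. Within each of these 8 genes the cell class made a larger difference than genotype or time: class means over the 12 libraries ranged 5.46-fold for Hspa8 and 30.4-fold for Hspe1. Of the 8 classes tested, late GN was the lowest for 7 of the 8 genes and MEP for Hspa5. Among these 8 classes, EryP/early Ery was the highest for Hspe1, Hspd1, Hsp90aa1, Hsph1 and Hspa9, MEP for Hsp90ab1 and Hspa8, and GMP/early GN for Hspa5. Classes are made from the same libraries, so these orders are described without a test. Neighbouring classes are called apart only where the mean of their 12 within-library differences exceeded its SD. By this strict rule a pair can be not apart although most libraries agree, as for Hsph1, which was higher in late Ery than in late GN in 11 of 12 libraries.

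**Figure D1:**
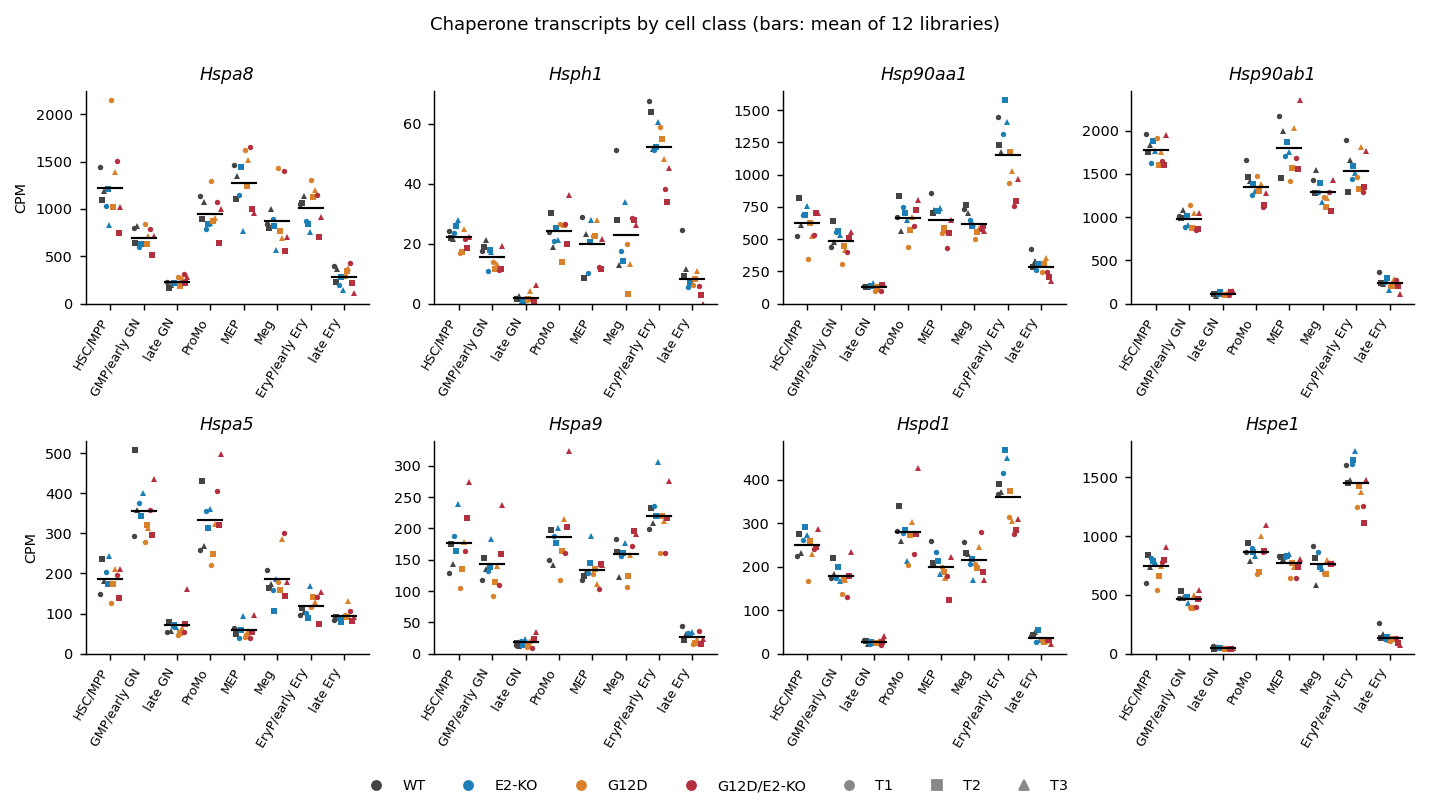
Level of 8 chaperone genes (CPM, linear axis from 0) in the 8 cell classes. Each point is 1 of 12 libraries, coloured by genotype and shaped by time point, and the bar is their mean. Hspe1, Hsp90aa1 and Hsph1 stand highest in EryP/early Ery, Hspa5 in GMP/early GN and ProMo, and late GN and late Ery are low for most genes.

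Hspa8 (ENSMUSG00000015656, chr9:40800984-40810087, plus strand) encodes HSC70, the HSP70 that cells make without stress. It averaged 1273 ± 283 CPM (SD, n = 12) in MEP, 1219 ± 373 in HSC/MPP, 1010 ± 189 in EryP/early Ery, 946 ± 177 in ProMo, 875 ± 282 in Meg and 693 ± 103 in GMP/early GN, and no neighbours in this stretch were apart. Late Ery, at 282 ± 103 CPM, was below GMP/early GN in 12 of 12 libraries, and late GN, at 233 ± 43.9 CPM, was not apart from late Ery. Over these 8 classes Hspa8 had the narrowest range of the 8 genes.

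Hsph1 (ENSMUSG00000029657, chr5:149614287-149636376, minus strand) encodes HSP110, which exchanges the nucleotide on HSP70. EryP/early Ery stood alone, at 52.2 ± 9.94 CPM against 24.1 ± 5.81 in ProMo, and was higher in 12 of 12 libraries. ProMo, Meg, HSC/MPP, MEP and GMP/early GN ran from 24.1 to 15.4 CPM with no neighbours apart. Late Ery (8.26 ± 6.03 CPM) was below GMP/early GN in 11 of 12 libraries and late GN (1.99 ± 1.69 CPM) was not apart from late Ery, which left a 26.3-fold range.

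Hsp90aa1 (ENSMUSG00000021270, chr12:110690605-110702728, minus strand) and Hsp90ab1 (ENSMUSG00000023944, chr17:45567775-45573271, minus strand) encode the inducible and the constitutive cytosolic HSP90. Hsp90aa1 reached 1151 ± 261 CPM in EryP/early Ery, above ProMo (665 ± 111) in 12 of 12 libraries. ProMo, MEP, HSC/MPP and Meg lay between 665 and 621 CPM and were not apart, and GMP/early GN (486 ± 88.9), late Ery (285 ± 66.6) and late GN (129 ± 20.1) each stood below the one before in 12 of 12 libraries. Hsp90ab1 had another order: MEP (1795 ± 292 CPM) and HSC/MPP (1775 ± 135) led and were not apart, and EryP/early Ery (1532 ± 213) was below HSC/MPP in 11 of 12 libraries. ProMo (1347 ± 150), Meg (1291 ± 139), GMP/early GN (977 ± 97.9), late Ery (234 ± 67.4) and late GN (114 ± 15.6) followed. The ratio of Hsp90aa1 to Hsp90ab1 UMIs therefore moved across classes, from 0.356 in HSC/MPP and 0.366 in MEP to 0.504 in GMP/early GN, 0.757 in EryP/early Ery, 1.15 in late GN and 1.27 in late Ery. Only the change of this ratio between classes can be read, since capture of the 2 transcripts may differ.

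Hspa5 (ENSMUSG00000026864, chr2:34771970-34777547, plus strand) encodes BiP, the HSP70 of the ER and a main target of the unfolded protein response, and it had an order of its own. GMP/early GN (357 ± 66.2 CPM) and ProMo (333 ± 81.9) were highest and not apart. HSC/MPP (187 ± 36.9) was below ProMo in 12 of 12 libraries and level with Meg (187 ± 55.5), and EryP/early Ery (119 ± 28.5) was below Meg in 12 of 12. Late Ery (93.4 ± 13.9), late GN (70.3 ± 30.3) and MEP (57.9 ± 19.1) closed the order with no neighbours apart. GMP/early GN cells, which make granule proteins through the ER, thus held 6.16 times the MEP level.

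Hspa9, which encodes the mitochondrial HSP70 mortalin, was at 220.5 ± 41.3 CPM in EryP/early Ery, 187 ± 52.0 in ProMo, 176 ± 48.3 in HSC/MPP, 159 ± 28.2 in Meg, 143 ± 38.6 in GMP/early GN and 133 ± 21.4 in MEP, with no neighbours apart. Late Ery, at 27.3 ± 9.08 CPM, was below MEP in 12 of 12 libraries, and late GN was at 18.1 ± 6.80 CPM. Hspd1 (ENSMUSG00000025980, chr1:55077835-55088243, minus strand), the chaperonin HSP60, ran from 360 ± 63.6 CPM in EryP/early Ery through 281 ± 59.1 in ProMo, 249 ± 34.1 in HSC/MPP, 217 ± 34.1 in Meg and 199 ± 33.8 in MEP to 178 ± 29.6 in GMP/early GN. No neighbours in this run were apart, though GMP/early GN was below HSC/MPP in 12 of 12 libraries. Hspd1 was then at 35.0 ± 9.88 CPM in late Ery, below GMP/early GN in 12 of 12 libraries, and at 26.7 ± 5.33 in late GN. Hspe1 (ENSMUSG00000073676, chr1:55088132-55091307, plus strand), the co-chaperonin HSP10, was at 1449 ± 182 CPM in EryP/early Ery, above ProMo (866 ± 117) in 12 of 12 libraries. ProMo, MEP, Meg and HSC/MPP lay between 866 and 748 CPM and were not apart, and GMP/early GN (464 ± 51.7), late Ery (135 ± 44.7) and late GN (47.6 ± 8.08) each stood lower in 12 of 12.
Across the 12 libraries Hspd1 and Hspe1 moved together (Pearson r 0.956 of log2 CPM) but not in a fixed proportion across classes. Each also went with Hsp90aa1 (r 0.948 for Hspd1 and 0.963 for Hspe1). A link to the promoter stretch shown above was not tested. The ratio of Hspe1 to Hspd1 UMIs was 3.40 ± 0.188 over all cells (n = 12), and by class it was 3.98 in MEP, 3.02 in HSC/MPP, 2.64 in GMP/early GN and 1.83 in late GN.

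Along the granulocyte and erythroid series, the late class was below the early one for nearly every member. From GMP/early GN to late GN all 8 genes were lower in 12 of 12 libraries, from 2.97-fold for Hspa8 to 9.75-fold for Hspe1. Their median log2 difference was -2.65, beside -0.62 over the 7080 genes at 10 CPM or more in either class, of which 77.7% were lower. From EryP/early Ery to late Ery 7 of the 8 were lower in 12 of 12 libraries, with Hspe1 10.7-fold and Hspd1 10.3-fold lower, and Hspa5 was 1.28-fold lower on average and lower in 10 of 12. The median there was -2.78 beside -1.16 over 6879 genes, of which 84.0% were lower. CPM is a share of a class's UMIs, and in late GN and late Ery the 10 most counted genes took 47.9% and 49.6% of all UMIs, against 8.93 to 13.7% in the other 6 classes. Counts per cell do not depend on that share but follow the size of a class's cells: all genes together gave 12088 UMIs per cell in EryP/early Ery and 4532 in late GN. A cell had on average 17.6 UMIs of Hspe1 in EryP/early Ery and 0.215 in late GN, and 18.6 and 0.508 UMIs of Hsp90ab1. By this measure some orders differed from those in CPM. Hspa8 and Hsp90ab1 had their highest class mean in EryP/early Ery (12.5 and 18.6 UMIs per cell) and not in MEP (6.11 and 8.46), and Hspa5 had its highest in ProMo (3.44) and not in GMP/early GN (2.71).
At the start of the erythroid series most members were higher. From MEP to EryP/early Ery, Hsph1 was 2.63-fold higher, Hspa5 2.06-fold, Hspe1 1.87-fold, Hspd1 1.81-fold, Hsp90aa1 1.77-fold and Hspa9 1.66-fold, each in 12 of 12 libraries. As a share of UMIs the constitutive genes went the other way, Hspa8 being 1.26-fold lower in 12 of 12 libraries and Hsp90ab1 1.17-fold lower in 11 of 12, while their UMIs per cell went from 6.11 to 12.5 and from 8.46 to 18.6. The median over all genes for this step was 0.036 on the log2 scale. From HSC/MPP to GMP/early GN, 7 members were lower in 12 of 12 libraries and Hspa5 alone was higher, 1.91-fold and in 12 of 12. Of 7773 genes, 65.6% were lower in this step, with a median of -0.19 on the log2 scale.

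The share of cells with at least 1 UMI was taken after each cell was thinned to 1400 UMIs. Over all cells it was 55.6% for Hsp90ab1, 51.3% for Hspa8, 41.6% for Hsp90aa1, 41.0% for Hspe1, 18.4% for Hspa5, 18.1% for Hspd1, 13.5% for Hspa9 and 2.35% for Hsph1, and without thinning it was 75.5, 80.0, 71.5, 65.2, 49.2, 47.2, 41.9 and 12.8%. Hspe1 was detected in 80.5 ± 4.94% of thinned EryP/early Ery cells and in 6.52 ± 1.12% of late GN cells. Hspa5 was detected in 36.5% of GMP/early GN and 6.56% of MEP cells, and Hsph1 in 6.65% of EryP/early Ery and 0.208% of late GN cells. By genotype the thinned share over all cells was 42.6 ± 3.59% in WT and 40.1 ± 9.23% in G12D/E2-KO for Hsp90aa1, 40.3 ± 1.79% and 42.0 ± 10.1% for Hspe1, and 2.93 ± 0.424% and 1.66 ± 0.479% for Hsph1 (n = 3 each). Free RNA in the droplets gives some UMIs to every class, and its part in the low late GN values was not tested.

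Over all cells, the only members with an edgeR adjusted p under 0.05 between genotypes were Hsph1 and Hsp90aa1, both lower in G12D/E2-KO than in WT. Against G12D, Hsph1 in G12D/E2-KO changed by -0.33 on the log2 scale (edgeR adjusted p = 0.376) and Hsp90aa1 by -0.05 (0.902). Hsph1 was at 35.5, 27.4 and 27.5 CPM in WT at T1, T2 and T3, at 24.5, 29.3 and 29.8 CPM in E2-KO, at 19.6, 24.0 and 20.4 CPM in G12D, and at 14.6, 16.0 and 25.0 CPM in G12D/E2-KO. Every G12D/E2-KO library was below every WT library, and the mean was 38.6% lower (18.5 ± 5.65 against 30.2 ± 4.65 CPM, n = 3 each). In the fit across all genes (edgeR quasi-likelihood test on counts summed per library, with genotype and time point as factors and p adjusted by Benjamini-Hochberg over the 13143 genes tested), Hsph1 fell by 0.79 on the log2 scale (SE 0.16, 95% interval -1.15 to -0.44, edgeR adjusted p = 0.0239).
Hsp90aa1 was at 825, 700.5 and 688 CPM in WT, at 768, 919.5 and 798 CPM in E2-KO, at 382, 639 and 494 CPM in G12D, and at 381, 549 and 635 CPM in G12D/E2-KO. The G12D/E2-KO libraries again lay below all WT libraries, with a mean 29.3% lower (522 ± 129 against 738 ± 75.8 CPM). The log2 change was -0.59 (SE 0.15, 95% interval -0.92 to -0.27, edgeR adjusted p = 0.0446). For Hsph1 and Hsp90aa1 the gap to the WT library of the same time point was largest at T1 and smallest at T3. At T3 Hsph1 was at 25.0 against 27.5 CPM and Hsp90aa1 at 635 against 688 CPM. These 2 of the 9 members tested were the only ones called in this contrast, both lower, where 5.71% of all genes were called and 1.99% were called lower. In sums over all cells, fewer cells of a type and less RNA per cell cannot be told apart, so values within classes are given further below. The share of EryP/early Ery cells, the class with the most Hsph1 and Hsp90aa1, was 9.48% in G12D/E2-KO (6.47 to 11.3%), 10.2% in G12D (6.23 to 16.3%), 18.5% in E2-KO and 18.3% in WT (15.2 to 20.6%), and the 10 marker genes of that class summed to 3156 to 3782 CPM in WT and 1916 to 2640 CPM in G12D/E2-KO. With the class mix held fixed the changes were -0.42 (limma adjusted p = 0.136) for Hsph1 and -0.29 (0.18) for Hsp90aa1, and neither was called. Both calls were also lost on leaving out WT T1, WT T3, G12D/E2-KO T1 or G12D/E2-KO T2, with library totals without TMM and with only the 2 genotypes compared, and Hsp90aa1 alone was lost without time point in the fit (edgeR adjusted p = 0.0682), with the tables as deposited (0.0528) and on leaving out E2-KO T1, E2-KO T2, G12D T1 or G12D T3 (0.0559 to 0.07001). Of 21 alternative settings, 14 called Hsph1 and 8 called Hsp90aa1.

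**Figure D2:**
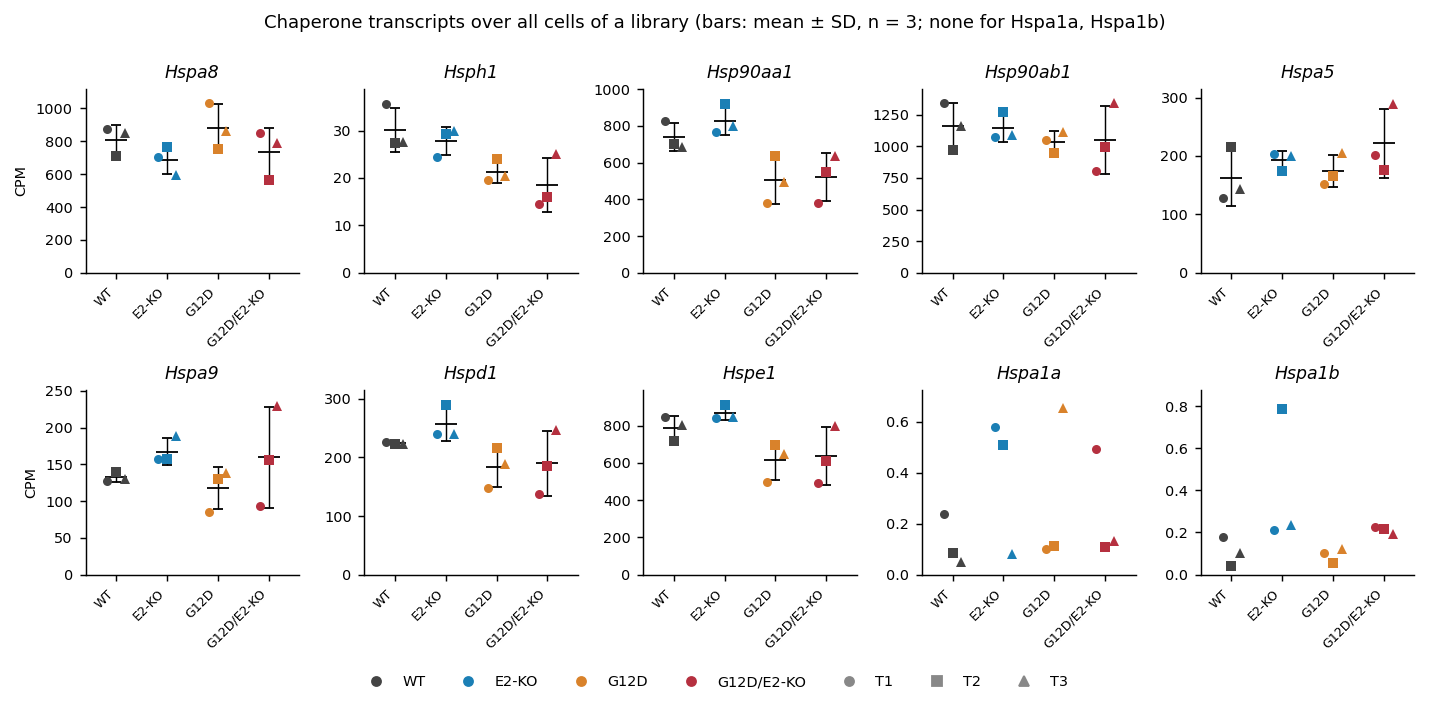
CPM over all cells for each of the 10 genes (linear axes from 0), with 3 libraries per genotype drawn by time point. Bars are the mean ± SD of the 3 libraries and are left out for Hspa1a and Hspa1b. The Hsph1 and Hsp90aa1 points of G12D/E2-KO and of G12D all lie below those of WT, as do the Hspe1 and Hspd1 points of G12D. The Hspd1, Hspa9 and Hspa1b points of E2-KO and the Hspa1b points of G12D/E2-KO all lie above those of WT. The share of all genes split in these ways was not counted. WT T1, E2-KO T3 and G12D/E2-KO T3 had 3 UMIs of Hspa1b each. For Hspa8, Hsp90ab1, Hspa5 and Hspa1a each mutant overlaps with WT.

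The other members did not pass the test between G12D/E2-KO and WT. Hspe1 was at 846, 717 and 802 CPM in WT and at 493, 610.2 and 800.0 CPM in G12D/E2-KO, a log2 change of -0.40 (edgeR adjusted p = 0.0757), and its T1 and T2 libraries were below WT while the T3 library was within the WT range. Hspd1 was at 227, 223 and 223 CPM in WT and at 137, 186 and 247 CPM in G12D/E2-KO (-0.34, adjusted p = 0.125), again with the T3 library not below WT. Hspa5 was at 127, 216 and 143 CPM in WT and at 201, 176 and 289 CPM in G12D/E2-KO (0.37, adjusted p = 0.275), and the groups overlapped. The changes of Hsp90ab1 (-0.22, adjusted p = 0.348), Hspa8 (-0.21, 0.402) and Hspa9 (0.11, 0.686) were smaller than those of the members called.

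The single mutants were compared with the same 3 WT libraries. In G12D against WT 0 of 9 members were called, where edgeR called 0.107% of all genes, and 3 members and 11.8% of all genes had an unadjusted p under 0.05 (DESeq2 called 0 members). These were Hsp90aa1 (-0.54, edgeR adjusted p = 0.263), Hsph1 (-0.47, 0.337) and Hspe1 (-0.34, 0.36). For these genes and for Hspd1 the 3 G12D libraries lay below all WT libraries. The share of all genes split in this way was not counted. In E2-KO against WT 0 of 9 were called by edgeR, which called 1.65% of all genes, 0 members and 16.2% of all genes had an unadjusted p under 0.05, and DESeq2 called 0 members. The share of late GN, the class poorest in most members, was 12.5% of cells in E2-KO and 31.6% in WT, and that of B lymphoid cells 12.99% and 5.59%, and their part in these values was not tested. The Hsp90aa1 mean was 828 ± 80.3 CPM in E2-KO and 738 ± 75.8 CPM in WT. Hspa9, at 157, 157 and 189 CPM in E2-KO against 128, 140.1 and 130.3 CPM in WT, had a log2 change of 0.31 (edgeR adjusted p = 0.370). With the mix of the 8 classes held fixed, Hspa9 was at 120, 113 and 152 CPM in E2-KO. In WT it was then at 101, 121 and 104 CPM, and the 2 groups overlapped.
Whether both mutations together gave more or less than the sum of each was tested as an interaction. Within EryP/early Ery edgeR called 0 of 8 members, and 2 of 8 had an unadjusted p under 0.05, beside 366 of 10166 genes. In Meg 1 of 8 members had such a p, beside 307 of 5460 genes, and in the other classes no member did. Over all cells no member was called by edgeR or DESeq2 or had an unadjusted p under 0.05. There edgeR called 0.0913% of all genes, and 3.73% had such a p. G12D/E2-KO against G12D gave 0 called members by either tool beside 1.42% of all genes, and 1 member with an unadjusted p under 0.05 (14.9% of all genes), Hspa8 (-0.36, edgeR adjusted p = 0.307), at 1034, 753 and 860.2 CPM in G12D and 849, 566 and 788 CPM in G12D/E2-KO. G12D/E2-KO against E2-KO gave 0 called members by edgeR beside 0.0913% of all genes, and 4 members with an unadjusted p under 0.05 (19.1% of all genes), which DESeq2 called among 696 of 13143 genes: Hsp90aa1 (-0.73, edgeR adjusted p = 0.0825), Hsph1 (-0.66, 0.0889), Hspe1 (-0.52, 0.0889) and Hspd1 (-0.50, 0.0923).

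Within EryP/early Ery cells, where these genes are highest, Hsp90aa1 was at 1450.2, 1229 and 1176 CPM in WT at T1, T2 and T3, at 1313, 1577 and 1406 CPM in E2-KO, at 935, 1175 and 1026 CPM in G12D, and at 756, 798 and 966 CPM in G12D/E2-KO. All G12D/E2-KO libraries were below all WT and E2-KO libraries. Hsp90aa1 fell by 0.55 against WT (SE 0.12, edgeR adjusted p = 0.0234) and by 0.73 against E2-KO (SE 0.12, adjusted p = 0.0237).
It was the only one of 8 members called against WT in this class, where 3.35% of 10166 genes were called and 1.02% called lower. The call held in 12 of 16 alternative settings and was lost without WT T1, WT T3, G12D/E2-KO T1 or G12D/E2-KO T2. Against E2-KO, 2 members were called, both lower, where 0.197% of all genes were called and 0.0689% called lower. The second was Hspd1, at 416, 467 and 451 CPM in E2-KO and 276, 284 and 311 CPM in G12D/E2-KO (-0.58, SE 0.11, edgeR adjusted p = 0.0346, called in 3 of 16 alternatives, while the Hsp90aa1 call held in 10 of 16). Hspd1 was at 366, 389.6 and 371 CPM in WT, and its change against WT was -0.30 (adjusted p = 0.122).

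Hsph1 in EryP/early Ery was at 67.7, 63.8 and 51.6 CPM in WT, at 51.4, 52.4 and 60.5 CPM in E2-KO, at 58.8, 55.0 and 48.1 CPM in G12D and at 38.1, 34.0 and 45.4 CPM in G12D/E2-KO. The G12D/E2-KO libraries were the lowest 3 of the 12, and the change against WT (-0.57, edgeR adjusted p = 0.0502) missed the threshold. Hspe1, at 1254, 1112 and 1476 CPM in G12D/E2-KO and 1599, 1448 and 1479.6 CPM in WT, had a change of -0.18 (adjusted p = 0.376). Hsp90ab1, the constitutive HSP90, did not change in proportion with Hsp90aa1 in this class: the ratio of Hsp90aa1 to Hsp90ab1 UMIs was 0.575 in G12D/E2-KO (0.545 to 0.594), 0.698 in G12D (0.566 to 0.890), 0.947 in E2-KO (0.915 to 0.994) and 0.808 in WT (0.709 to 0.951). The G12D libraries overlapped both G12D/E2-KO and WT. The EryP/early Ery cells came from 5 WT clusters, 4 of which held on average between 14.9 and 32.1% of the class in every genotype. By library these shares ran from 9.49 to 39.9%, and the part of this mix in the values was not tested.

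**Figure D3:**
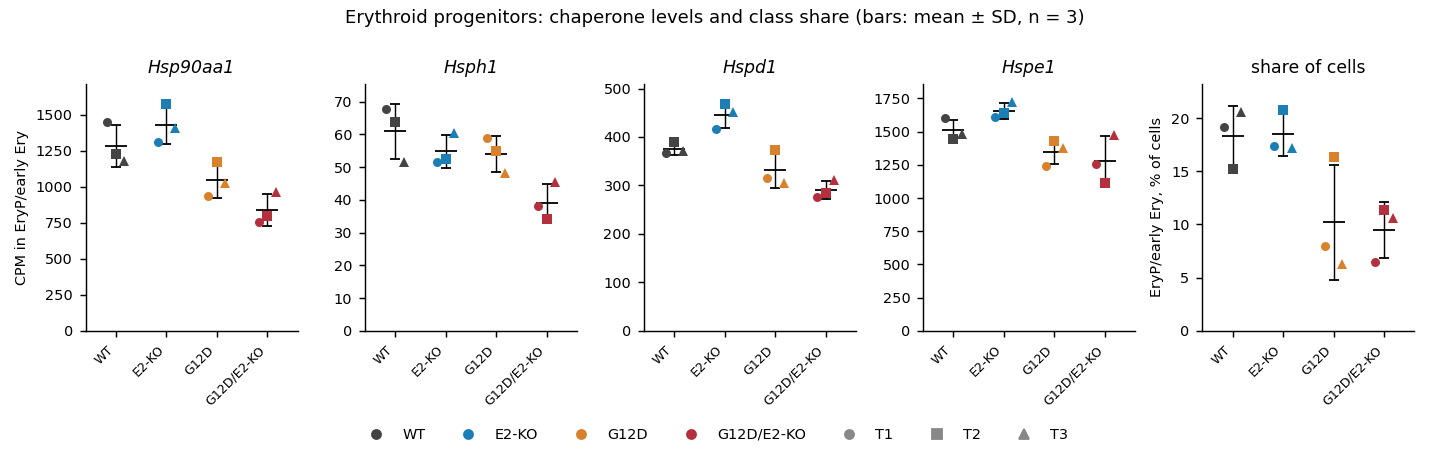
CPM of Hsp90aa1, Hsph1, Hspd1 and Hspe1 in EryP/early Ery cells (linear axes from 0) and the share of cells in that class (%), for 3 libraries per genotype with the mean ± SD. Hsp90aa1 in G12D/E2-KO (756 to 966 CPM) lies below all WT and E2-KO libraries, and the share of EryP/early Ery cells is lower in G12D/E2-KO (6.47 to 11.3%) than in WT (15.2 to 20.6%).

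**Figure D4:**
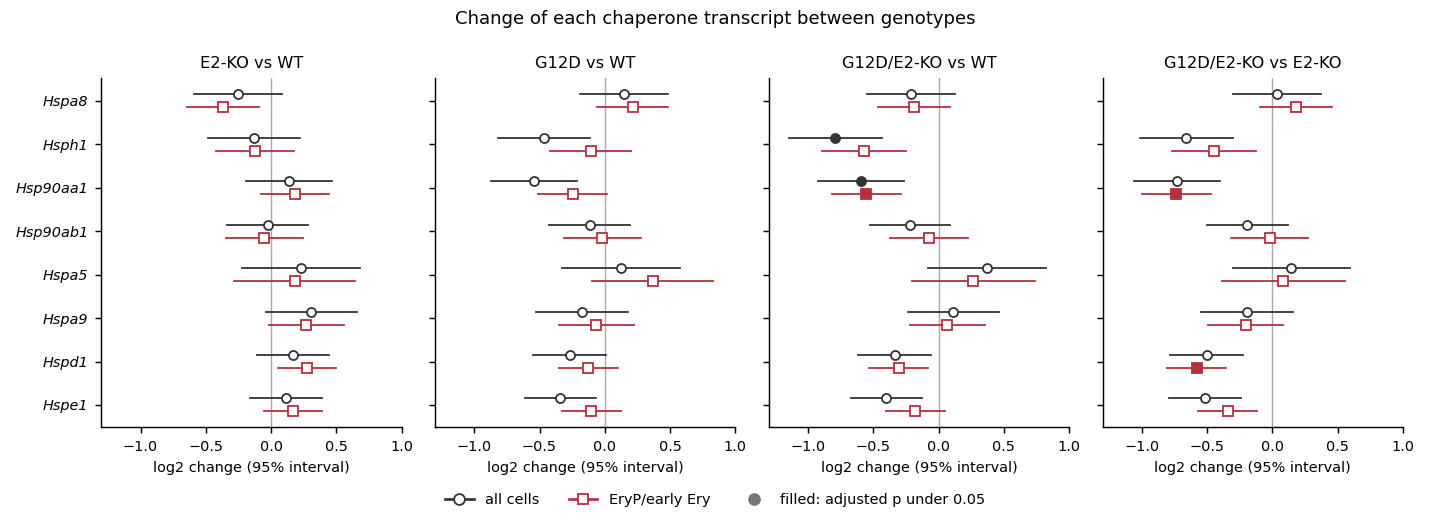
Log2 change with its 95% interval for each member in 4 genotype contrasts, over all cells (circles) and in EryP/early Ery (squares). Filled symbols have an adjusted p under 0.05: Hsph1 and Hsp90aa1 over all cells for G12D/E2-KO against WT, Hsp90aa1 in EryP/early Ery for the same contrast, and Hsp90aa1 and Hspd1 in EryP/early Ery for G12D/E2-KO against E2-KO.

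In the other classes no member was called in a genotype contrast. Over 46 genotype contrasts in classes without a called member, some of them in EryP/early Ery, edgeR called 0 to 4.26% of all genes. Of their 368 member tests, 43 (11.7%) had an unadjusted p under 0.05, beside 9.01% of all gene tests (3.01 to 20.5% by contrast). Outside EryP/early Ery, the values nearest to a call were all for G12D/E2-KO against WT. They were late GN Hspe1 (-0.53, edgeR adjusted p = 0.0683), late Ery Hsph1 (-1.76, 0.101) and Hspe1 (-0.67, 0.106), ProMo Hsp90ab1 (-0.43, 0.105) and HSC/MPP Hspa9 (0.54, 0.111). None of these passed the test. The HSC/MPP cluster led by Prg2 and Cpa3 made up 40.5 to 75.2% of that class in G12D/E2-KO libraries and 39.5 to 50.4% in WT, and its part in the Hspa9 value was not tested.

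Among the related genes were those that heat shock factor 1 is known to raise. Of the 14 such targets tested over all cells, 3 fell in G12D/E2-KO against WT, 2 of them the members named above, and 0 rose, where 1.99% of all genes were called lower, with a median log2 change of -0.36 beside 0.014 over all genes and 2 of the 14 above 0. The 3 were Hsph1, Hsp90aa1 and Dnajb1, an HSP40 that feeds clients to HSP70 (53.8 to 38.8 CPM on average, -0.52, edgeR adjusted p = 0.0485). In EryP/early Ery 2 of 13 fell, Hsp90aa1 and Fkbp4, a co-chaperone of HSP90 (-0.67, edgeR adjusted p = 0.0203), with a median of -0.41 and 1 above 0. Of all genes, 3.35% were called in that class and 1.02% were called lower. The median was -0.058 in HSC/MPP (6 of 13 above 0), -0.022 in ProMo (5 of 13), -0.15 in Meg (3 of 12), -0.17 in GMP/early GN (2 of 13), -0.25 in late GN (3 of 13), -0.33 in MEP (0 of 12) and -0.51 in late Ery (2 of 12), where 0 genes were called except 1 in late GN, Dnaja1. Hsf2, a heat shock factor, rose over all cells (5.26 to 10.8 CPM, 0.99, edgeR adjusted p = 0.0399).
Over all cells, no gene of the ER chaperone and unfolded protein response list was called of the 23 tested, with a median of 0.34 and 20 above 0. Among them were Calr, a lectin chaperone (0.47, adjusted p = 0.229), Hyou1, an ER partner of BiP (0.51, 0.187), and Hsp90b1, the HSP90 of the ER (0.37, 0.221). Within classes the median of this list was 0.037 in HSC/MPP (12 of 22 above 0), -0.19 in GMP/early GN (8 of 22), -0.037 in ProMo (10 of 22), 0.071 in late GN (13 of 22), 0.19 in MEP (13 of 15), 0.0085 in Meg (9 of 17), 0.18 in EryP/early Ery (18 of 22) and 0.24 in late Ery (12 of 18), so the all-cell direction did not hold in each class.
Over all cells, lists of the mitochondrial side had 0 called genes: 0 of 14 mitochondrial chaperones (median -0.30, 4 above 0) and 0 of 8 genes of the mitochondrial unfolded protein response (median -0.36). The cytosolic chaperonin TRiC, which folds actin and tubulin, had 0 of 7 called with a median of -0.16 and none above 0, and its partner prefoldin had 0 of 6 with a median of -0.15. Co-chaperones of HSP90 and HSP70 had 0 of 20 called (median -0.20, 4 above 0), HSP40 genes 1 of 21 (Dnajb1, median -0.13), and the 12 immediate early genes tested 0 with a median of 0.12. Of the HSP70 family, 13 genes were tested, of which Hsph1 fell and Hspa2, a testis-rich HSP70, rose (0.93, edgeR adjusted p = 0.0213), and of the HSP90 family 1 of 4 fell, Hsp90aa1. Over all lists, 3 of the 111 genes other than members were called in this contrast (2.70%), a smaller share than the 5.71% of all genes.

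In E2-KO against WT no member was called, and of the 111 other list genes tested 3 rose (2.70%) and 0 fell, beside 1.65% of all genes called. Hspa2 was at 4.07 CPM in WT and 8.52 CPM in E2-KO (1.05, edgeR adjusted p = 0.0178), and Hspb11, an intraflagellar transport protein grouped with the small heat shock proteins, was at 15.7, 15.4 and 13.9 CPM in WT and at 25.7, 29.6 and 25.3 CPM in E2-KO (0.82, adjusted p = 0.0146). Hspb8, a small heat shock protein that works with BAG3 in autophagy, had 0 UMIs in the 3 WT libraries and 48 in the 3 E2-KO libraries. Set against a floor of 3 counts over the WT group it was at least 18.04-fold higher (edgeR adjusted p = 0.0269), and at least 12.01-fold without E2-KO T2. E2-KO had 15, 29 and 4 UMIs of it at T1, T2 and T3, G12D/E2-KO had 1, 12 and 0, and G12D had 1 in all, at T2. Within classes, 5 calls of list genes were made in E2-KO against WT. Hspb11 rose in EryP/early Ery (0.90) and late Ery (1.21) and Hspa12a in late GN (3.75), while Ier2 fell in EryP/early Ery (-0.90) and Fkbp4 in ProMo (-0.72). Of all genes, 2.65% were called in EryP/early Ery, 2.12% in late Ery, 1.98% in late GN and 1.14% in ProMo.
Within late GN, 5 of the 101 list genes other than members were called in G12D/E2-KO against WT (4.95%), close to the 4.26% of all 9010 genes called there: Dnaja1 (-0.66), Bag1 (-0.51) and Xbp1 (-0.59) fell, and Hsf2 (1.64) and Fos (2.15) rose. Dnaja1 is an HSP40, Bag1 a nucleotide exchange factor of HSP70 and Xbp1 a transcription factor of the unfolded protein response. Within late Ery, Atf5 of the mitochondrial unfolded protein response list rose in G12D/E2-KO against WT (2.66, edgeR adjusted p = 0.00829), where 1.52% of all genes were called. It also rose against E2-KO (3.36, edgeR adjusted p = 0.00618), where 0.159% were called.

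Over time, no gene was called by edgeR in T2 against T1, T3 against T1 or T3 against T2 (0% of all genes in each), so the members' values are given as they stood. Hspa9 was at 92.6 CPM at T1 in G12D/E2-KO, 85.5 in G12D, 157 in E2-KO and 128 in WT, at 156, 129, 157 and 140.1 CPM at T2 in the same order, and at 229, 138, 189 and 130.3 CPM at T3. It was higher at T3 than at T1 in 4 of 4 genotypes, by the least in WT, with means of 116, 145 and 172 CPM at T1, T2 and T3. The log2 change from T1 to T3 was 0.54 (SE 0.14, 95% interval 0.24 to 0.85, edgeR unadjusted p = 0.0023, adjusted p = 0.367). DESeq2 gave an adjusted p of 0.0914. In G12D/E2-KO, where Hspa9 differed most between T1 and T3, the 12 late GN markers summed to 144011 CPM at T1 and 36787 CPM at T3, the 11 Meg markers to 205 and 980.4 CPM, and the median mitochondrial share was 3.11% and 5.58%.
Within classes the T3 minus T1 change of Hspa9 was 0.55 in GMP/early GN (edgeR adjusted p = 0.0881, called in 4 of 15 alternative settings), 0.51 in HSC/MPP (0.141), 0.47 in ProMo (0.316), 0.43 in EryP/early Ery, 0.61 in late GN (0.359), 0.27 in MEP, 0.13 in late Ery and 0.069 in Meg. Over the 24 time contrasts in classes edgeR called 0 to 0.109% of all genes and 0 members. Of their 192 member tests, 34 (17.7%) had an unadjusted p under 0.05, beside 8.95% of all gene tests (3.92 to 16.9% by contrast).
The other members with an unadjusted p under 0.05 over all cells were Hspd1, in T3 against T1 (0.27, edgeR adjusted p = 0.368), and, in T2 against T1, Hspa9 (0.33), Hspd1 (0.27) and Hspa8. Hspa8 averaged 865 CPM at T1, 698 at T2 and 772 at T3 (T2 minus T1 -0.34, edgeR adjusted p = 0.908) and was lower at T2 in 3 of 4 genotypes. Of all 13143 genes, 1708 had such a p in T3 against T1 and 621 (4.72%) in T2 against T1. In T3 against T2 no member and 11.2% of all genes had one, and DESeq2 called no member in any time contrast over all cells.

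**Figure D5:**
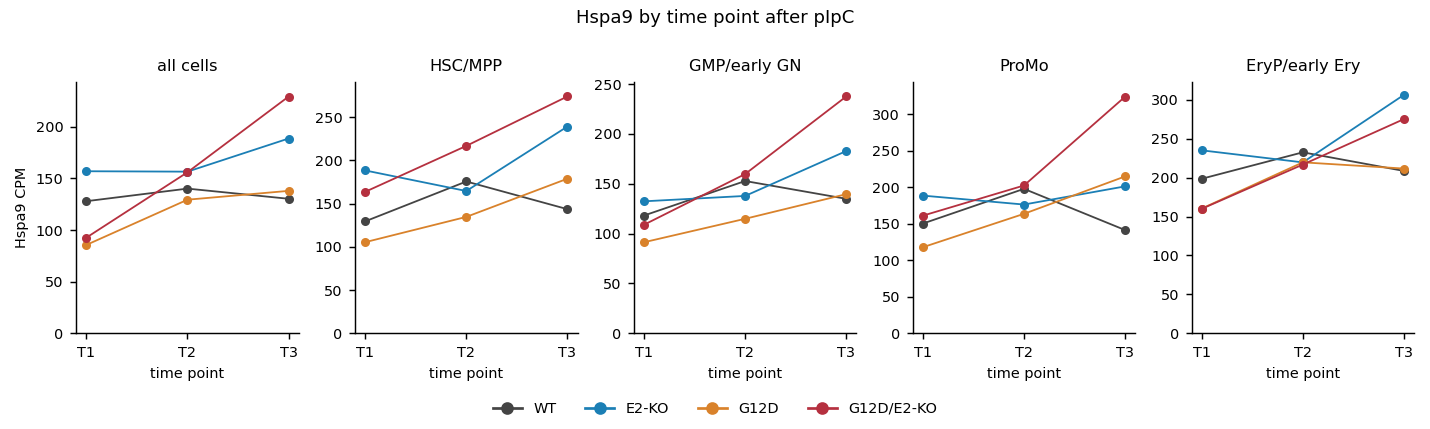
Hspa9 level (CPM, linear axes from 0) at T1, T2 and T3 for each genotype, over all cells and in HSC/MPP, GMP/early GN, ProMo and EryP/early Ery. Lines join the libraries of a genotype, 1 library per point. Over all cells the level at T3 is above that at T1 in 4 of 4 genotypes, from 92.6 to 229 CPM in G12D/E2-KO and from 128 to 130.3 CPM in WT.

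Across the 12 libraries the members fell into patterns that are given as descriptions, since the class mix differs between libraries (late GN made up 10.4 to 37.9% of cells and EryP/early Ery 6.23 to 20.8%). The log2 CPM of Hsp90aa1, Hspd1 and Hspe1 went together (Pearson r 0.948 to 0.963 between them) and Hsph1 followed (0.834 with Hsp90aa1 and 0.847 with Hspe1), while Hspa8 and Hspa9 ran opposite (-0.787). Among 5600 genes, the 3 most like Hsp90aa1 were Ssb (0.985), Ncl (0.971) and Lman1 (0.971), and those most like Hspe1 were Ncl (0.981), Ssb (0.970) and Lman1 (0.958). Nop10 (0.981), Hnrnpab (0.949) and Ncl (0.947) were nearest to Hspd1, and Naa15 (0.987), Iars (0.984) and Xpot (0.975) to Hspa9. Ncl (nucleolin) and Nop10 act in ribosome production, and Iars and Xpot encode a tRNA synthetase and a tRNA exporter.
Hspa5 was nearest to Pdia4 (0.879), Stt3a (0.871) and Sec24c (0.866), a disulfide isomerase, an oligosaccharyl transferase subunit and a coat protein of ER export. Hsph1 was nearest to Abcf1 (0.932), Ubap2 (0.919) and Dtl (0.914), Hspa8 to Azi2 (0.957), Cfl2 (0.949) and Gm26699 (0.917), and Hsp90ab1, with the lowest values of these, to Dusp11 (0.844), Luc7l (0.839) and Mtf2 (0.834).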

How the data were processed

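Single-cell RNA-seq libraries (10x Genomics 3′ chemistry) were made from c-Kit+ marrow, 1 per genotype and time point. Per the file headers and the study's methods, the authors aligned reads to mm10 with Cell Ranger, removed cells with over 10% mitochondrial reads and doublets called by Scrublet, and deposited whole UMI counts per gene and cell, used here as deposited. Cells that the G12D/E2-KO T1 table shares with that of G12D T1 were counted once. WT cells (7583) were clustered with scanpy 1.11.5 and leidenalg 0.10.2 (1987 variable genes, 50 principal components, 15 neighbours, resolution 2), which gave 29 clusters, 28 of them named from marker lists, and mutant cells took the class of the nearest WT cell. Chaperone-list genes and Xist were left out (13). No doublet caller was run again.

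Counts were summed per library, and per library and class, and tested with edgeR 4.0.16 (R 4.3.3): TMM factors (0.939 to 1.15), filterByExpr, robust quasi-likelihood fit, genotype and time point as factors, all 12 libraries, 6 residual degrees of freedom, Benjamini-Hochberg adjustment over all genes of a contrast, threshold 0.05. Of the members, 9 passed the filter over all cells (not Hspa1b) and 8 in the classes. The class contrasts G12D/E2-KO against G12D and against E2-KO were added once the files were at hand. The tests were tried on simulated data first. DESeq2 1.42.0, limma 3.58.1 (for the fixed class mix, on log2 of CPM + 1) and the settings of the closing section were alternatives. Libraries of different genotypes that share a time point tended to deviate together, though not in every pair (r from -0.198 to 0.421, median 0.128, 11 of 18 pairs over 0.1). Pairs from other time points had a median r of -0.060, with 4 of 36 pairs over 0.1. Time point entered as a factor of the design and not as a pairing of animals.

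Members and lists were chosen with earlier results of these data known. The named genes were all members, Ezh2, Nras, up to 6 called genes of the chaperone lists per contrast by size of change, and the 3 genes with the highest correlation to each member over libraries (average log2 CPM of at least 4). In the class fits, list genes that were called are named as examples. The 13 chaperone-related lists and the immediate early genes were described by counts and medians and not tested as sets.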

Additional observations from a re-analysis of the deposited data

Results flagged for a closer look

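In 30 sets of 4 libraries (each member at each time point, the 4 genotypes), 3 had a library far from the other 3, and chance alone marks about 1 set in 20. Hspa1a in E2-KO T2 stood at 0.510 CPM while the nearest other T2 library was at 0.114 CPM. Hspa1a in G12D T3 stood at 0.653 CPM, with the nearest T3 library at 0.130 CPM. Both rest on few molecules, since no library had more than 11 UMIs of Hspa1a. Hsp90ab1 in E2-KO T2 was at 1270.0 CPM, with the nearest T2 library at 995 CPM.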

How the results depend on the processing

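No log2 change among the 18 member results followed over up to 22 settings turned its direction while called: 258 values kept their side of the threshold, 29 gained a call and 43 lost one. The number of members called over all cells in G12D/E2-KO against WT (2) was 0 with library totals without TMM, 0 with only the 2 genotypes compared, 0 with the class mix held fixed, 1 with the tables as deposited, and 4 with the Xist level as a covariate. Without the time point as a replicate block it was 1, with Hsph1 called (-0.78, adjusted p = 0.0217) and Hsp90aa1 not (-0.57, 0.0682), and in classes the fit without the block called 1 pair of member and class in G12D/E2-KO against E2-KO in place of 2. Leaving out 1 library gave 0 to 3 members: 0 without WT T1, WT T3, G12D/E2-KO T1 or G12D/E2-KO T2, and 3 without WT T2 or G12D/E2-KO T3. Against E2-KO the count of members over all cells (0) was 4 with DESeq2, 4 with the Xist covariate, and 0 to 4 on leaving out 1 library, with 4 without G12D/E2-KO T3. Among pairs of member and class, G12D/E2-KO against WT (1) gave 2 with the tables as deposited, 3 with cells gated by markers and 0 to 2 on leaving out 1 library, G12D/E2-KO against G12D (0) gave 1 with the marker gate, and G12D/E2-KO against E2-KO (2) gave 1 as deposited and 0 to 2 on leaving out 1 library. T3 against T1 (0) gave 1 with DESeq2, 1 with the marker gate and 0 to 2 on leaving out 1 library, and T2 against T1 (0) gave 0 to 1. The cause of these shifts was not tested. Over 21 alternatives Hsph1 ranged from -0.95 to -0.42 and Hsp90aa1 from -0.72 to -0.29. With 1 library per genotype and time point and 6 residual degrees of freedom, calls near the threshold hang on single libraries. In G12D T1, Hsph1 was at 17.0 CPM as deposited and 19.6 CPM with shared cells counted once. The marker gate gave 84.8% of cells the same class, but 56.3% in HSC/MPP and 55.8% in MEP.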

Other observations

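The 5 classes with under 20 cells in some library were summed over all libraries, so their values have no spread. Dendritic cells (331 cells) had 1749.7 CPM of Hspa8 (2884 UMIs), with 842 to 4503 CPM by library, the highest from the 3 cells of WT T3, and 142 of the cells from G12D/E2-KO T1, beside 227 CPM of Hsp90aa1 (374 UMIs). B lymphoid cells (1836 cells) had 827 CPM of Hsp90aa1, 1245 CPM of Hsp90ab1 and 573 CPM of Hspe1. Basophils and mast cells (278 cells) had 1489 CPM of Hsp90ab1 and 425 CPM of Hsp90aa1. Macrophages (65 cells) had 173 CPM of Hspa8 and 56.6 CPM of Hspe1, on 55 and 18 UMIs. T and NK cells (96 cells), basophils and mast cells, and macrophages had 0 UMIs of both Hspa1a and Hspa1b.
In HSC/MPP, the change of Hspa9 in G12D/E2-KO against WT was 0.54 (edgeR adjusted p = 0.111) with mapped classes and was called (edgeR adjusted p = 0.0387) with cells gated by markers. Against G12D it was 0.58 (edgeR adjusted p = 0.119, not called) with mapped classes and 0.81 (edgeR adjusted p = 0.014) with the gate. The share of HSC/MPP cells was 10.1 to 11.1% in WT and 12.2 to 16.8% in G12D/E2-KO.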
